A study of Mus musculus with 24 samples.

Results

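The genes described here are the chemokine receptor gene Cxcr3 and the genes of its ligands, Cxcl9 and Cxcl10. They were chosen by gene symbol, as 3 of the 55025 genes in the deposited table, and all 3 were among the 20203 genes that passed the filter on low counts. LCL161 libraries held more Cxcl10 RNA than vehicle libraries in both spleen populations, and less Cxcr3 RNA on average over the 4 populations. Cxcl9 RNA differed most between the sorted populations of the spleen, with its highest levels in CD8-sorted cells and its lowest in CD4-sorted cells there.

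CXCR3 is a G protein-coupled receptor on the surface of activated T cells and NK cells, and its ligands CXCL9 and CXCL10 draw such cells along a gradient into inflamed tissue and tumors. Cxcl9 is induced above all by interferon gamma, chiefly in macrophages and dendritic cells. Cxcl10 also responds to type I interferon and to NF-kB and can be made by many kinds of cell.

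RNA was measured in cells sorted as CD45+CD8+ or CD45+CD4+ from tumor or spleen, to follow what LCL161 does to T cells in a mouse with a pancreatic tumor. LCL161 is a SMAC mimetic, a drug that drives the ubiquitin ligases cIAP1 and cIAP2 to degradation and so releases NF-kB signalling. All animals, vehicle controls included, were TCRα-/- mice carrying M8 organoid tumors in the pancreas. LCL161 was given orally at 75 mg/kg from day 4, as 3 doses spaced 3 days apart, and organs were harvested on day 12. The 8 groups were tumor CD8, tumor CD4, spleen CD8 and spleen CD4, each with LCL161 and with vehicle, and each group had 3 libraries. TCRα-/- mice lack conventional alpha beta T cells and keep gamma delta T cells, so the libraries do not stand for the T cells of a wild-type mouse, and no wild-type group was analysed here. The labels do not say that replicates came from separate mice, so p-values measure only the spread between these samples.

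Library totals ran from 15455728 to 25145426 estimated counts. The summed CD8 chain genes had 1020 to 2170 CPM (counts scaled to a common library total) in CD8-sorted libraries and 5.67 to 101 CPM in CD4-sorted libraries. Cd4 had 7.07 to 31.7 CPM in CD8-sorted libraries and 687 to 1430 CPM in CD4-sorted libraries. The CD3 complex genes summed to 1300 to 4060 CPM over all 24 libraries, and gamma delta T cell genes to 34.1 to 3330 CPM. Markers of other cells were present beside those of T cells in all groups. The 10 macrophage and monocyte markers summed to 608 to 6040 CPM in tumor libraries and 86.2 to 400 CPM in spleen libraries. The 8 conventional dendritic cell markers summed to 303 to 1960 CPM in CD8-sorted libraries and 63.7 to 323 CPM in CD4-sorted libraries. None of these 18 markers was at 0 in all 3 libraries of any group. The 6 B and plasma cell markers summed to 617 to 1760 CPM in spleen libraries and 10.5 to 167 CPM in tumor libraries. All 6 were called lower in the tumor in each comparison with the spleen, where 8.81 to 21.4% of all genes were called. The part of B cells in the tumor and spleen differences was not tested. Some dendritic cells of the mouse spleen carry CD8 alpha on their surface, and the sort as labelled names only CD45 and CD8 or CD4.

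The ligand genes are neighbors on chromosome 5 of GRCm38, both on the minus strand. Cxcl9 spans 92321347 to 92328079 and Cxcl10 spans 92346638 to 92348889, with 18558 bases between them. Cxcr3 lies on chromosome X, 101731535 to 101734269, also on the minus strand. Both ligand genes are known to respond to interferon, and LCL161 acts on NF-kB. The 250 bases before the RefSeq start (build GRCm38.p6) of each ligand gene are therefore shown. The windows are chr5:92348890-92349139 for Cxcl10 and chr5:92328080-92328329 for Cxcl9, written 5′ to 3′ on the minus strand, and capitals mark matches to the motifs searched.
Cxcl10: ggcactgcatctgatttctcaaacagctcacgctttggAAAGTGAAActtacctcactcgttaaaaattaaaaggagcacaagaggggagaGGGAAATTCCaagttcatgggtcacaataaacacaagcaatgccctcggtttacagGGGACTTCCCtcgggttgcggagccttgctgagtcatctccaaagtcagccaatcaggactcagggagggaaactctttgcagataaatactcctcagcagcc
Cxcl9: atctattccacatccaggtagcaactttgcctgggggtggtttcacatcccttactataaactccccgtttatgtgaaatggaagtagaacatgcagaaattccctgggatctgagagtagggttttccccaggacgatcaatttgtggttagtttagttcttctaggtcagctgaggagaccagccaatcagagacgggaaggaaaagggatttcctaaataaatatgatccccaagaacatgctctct

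Both strands were searched for the NF-kB consensus, for TTTCNNTTT (the core of the interferon stimulated response element, ISRE), for TTCNNNGAA (the gamma activated sequence, GAS) and for TCACACNT (a T-box element). The Cxcl10 window held 2 matches to the NF-kB consensus, which begin 159 and 103 bases before the start, and 1 ISRE core beginning 212 bases before it. These matches do not overlap each other. Of the 32851 promoters in the RefSeq table, cut to the same window, 3.90% held the NF-kB consensus, 0.493% held it at 2 or more positions and 9.37% held the ISRE core. Both motifs together occurred in 0.329%. The Cxcl9 window held no exact match to any of these motifs, and near matches were not searched for. The Cxcr3 window held 1 T-box element, beginning 234 bases before its RefSeq start, as did 2.95% of promoters, and the GAS was in 7.02% of promoters and in none of the 3 windows. A match is a description of letters, not of a site in use. The part of these motifs in the levels was not tested.

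Cxcl10 lies inside the span of Art3, a gene on the opposite strand, and their exons share 133 bases. No source used here gives the strand setting of the counting, so reads over those bases cannot be told apart. Of the 24 estimated Cxcl10 counts 11 were not whole, and likewise 11 of the 24 Art3 counts. Art3 counts were 4.78 to 19.2% of Cxcl10 counts (median 5.69%), so Cxcl10 values are uncertain by the reads that both genes could claim.

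Cxcl10 RNA was higher with LCL161 in both spleen populations. In spleen CD8 it stood at 44.2, 32.2 and 83.8 CPM in LCL161 libraries, against 10.4, 5.81 and 10 CPM in vehicle libraries. All LCL161 libraries lay above all vehicle libraries there, and LCL161 replicate 3 was the highest. Cxcl10 rose 6.10-fold (log2 fold change 2.61, 95% interval 1.55 to 3.67, edgeR quasi-likelihood test adjusted p = 0.00573), in a comparison that called 8.33% of all genes. Beside it, the 8 conventional dendritic cell markers summed to 352 to 631 CPM in LCL161 libraries and 1760 to 1960 CPM in vehicle libraries (3 called lower), and the 4 gamma delta T cell genes to 1790 to 2570 CPM in LCL161 libraries and 1210 to 1280 CPM in vehicle libraries (0 called). The part of these cells was not tested. In a sorted population, a change in the share of cells that make an RNA and a change in RNA per cell cannot be told apart. Without LCL161 replicate 3 the log2 fold change was 2.11 and the call was lost (adjusted p = 0.0514).

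In spleen CD4 Cxcl10 stood at 172, 155 and 74.5 CPM in LCL161 libraries, against 31.2, 14.2 and 19 CPM in vehicle libraries. The groups did not overlap, and the lowest LCL161 library, replicate 3, was still above the highest vehicle library. Cxcl10 rose 6.23-fold (log2 fold change 2.64, 95% interval 1.59 to 3.69, adjusted p = 0.0288, edgeR), in a comparison that called 0.436% of all genes. The size varied little with the libraries used, but the call did. It was kept without LCL161 replicate 3 and lost without LCL161 replicate 1 (2.42, adjusted p = 0.103), LCL161 replicate 2 (2.51, adjusted p = 0.0536), vehicle replicate 1 (3.00, adjusted p = 0.0586), vehicle replicate 2 (2.41, adjusted p = 0.0513) or vehicle replicate 3 (2.56, adjusted p = 0.130). It was also lost when only these 6 libraries were fitted (2.63, adjusted p = 0.368). Markers of other cells also varied between these libraries, with 0 of 6 neutrophil, 0 of 5 plasmacytoid dendritic cell and 1 of 4 gamma delta T cell genes called, the last lower. The 6 neutrophil markers summed to 130 to 1080 CPM in LCL161 libraries and 25.3 to 339 CPM in vehicle libraries. The 5 plasmacytoid dendritic cell markers summed to 206 to 592 CPM with LCL161 and 373 to 1780 CPM with vehicle, and the 4 gamma delta T cell genes to 34.1 to 126 CPM with LCL161 and 242 to 1510 CPM with vehicle. The part of these cells was not tested.

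In tumor CD8 Cxcl10 stood at 161, 247 and 179 CPM in LCL161 libraries, against 87.4, 105 and 94.9 CPM in vehicle libraries. The groups did not overlap, which with 3 libraries each is a description and not a test. The mean was 195 ± 45.6 CPM with LCL161 and 95.8 ± 8.88 CPM with vehicle (SD, n = 3 each). The log2 fold change of 1.03 (95% interval 0.04 to 2.02) did not pass (adjusted p = 0.439, edgeR), in a comparison that called 0.247% of all genes. It passed when only these 6 libraries were fitted (1.04, adjusted p = 0.0436). In tumor CD4 Cxcl10 stood at 51.6, 113 and 148 CPM in LCL161 libraries, against 67.7, 137 and 35.1 CPM in vehicle libraries. These groups overlapped. The log2 fold change was 0.38 (95% interval -0.60 to 1.36, adjusted p = 0.783, edgeR), where 0.307% of all genes were called. The 10 macrophage and monocyte markers summed to 679 to 1350 CPM in tumor CD4 LCL161 and 2400 to 6040 CPM in tumor CD4 vehicle. In tumor CD8 they summed to 608 to 925 CPM with LCL161 and 1320 to 2010 CPM with vehicle. Of the 10, 1 was called lower in tumor CD4 and 0 in tumor CD8. Their part in the Cxcl10 levels was not tested. Averaged over the 4 populations Cxcl10 was 3.17-fold higher with LCL161 (log2 1.66, 95% interval 1.16 to 2.17, adjusted p = 0.000265, edgeR), among the 18.7% of genes called for that average. This call held without each of the 24 libraries, with log2 fold changes of 1.54 to 1.82.

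**Figure D1:**
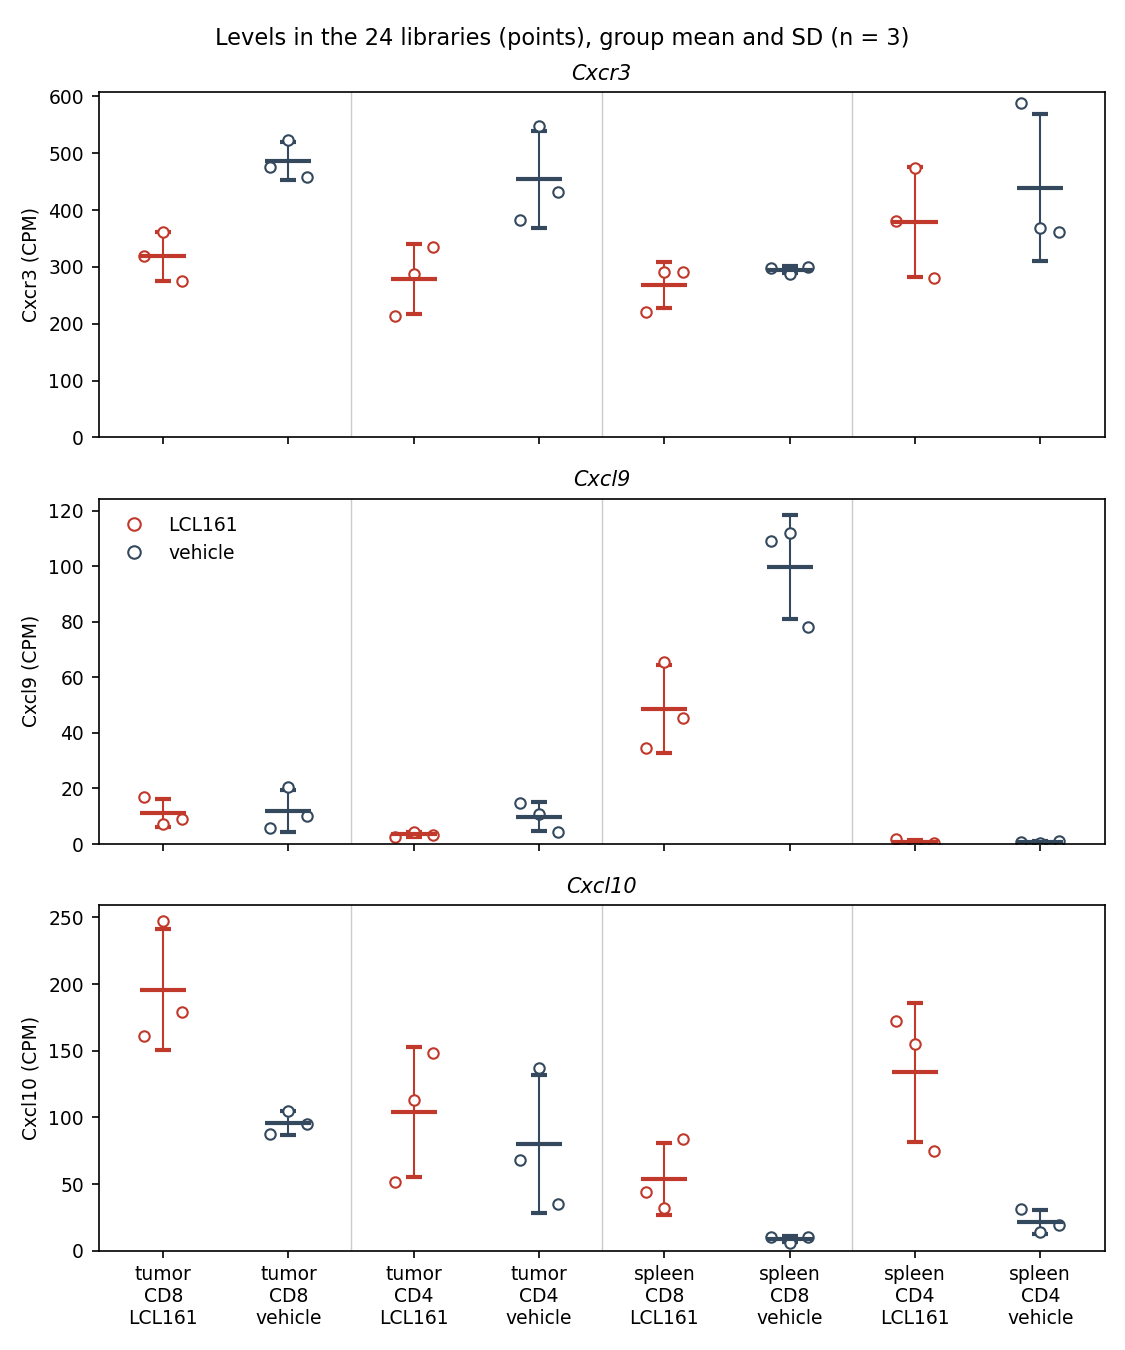
Levels of Cxcr3, Cxcl9 and Cxcl10 in the 24 libraries, in CPM on linear axes that start at 0. Points are libraries, thick bars are group means and whiskers are SD (n = 3), in red for LCL161 and dark blue for vehicle. Cxcl10 points of LCL161 libraries lie above those of vehicle libraries in both spleen populations, and Cxcl9 reaches 112 CPM in spleen CD8 and at most 1.69 CPM in spleen CD4.

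Cxcr3 RNA, that of the receptor, was abundant in every library and tended to lower levels with LCL161. In tumor CD8 it stood at 320, 361 and 275 CPM in LCL161 libraries, against 476, 523 and 459 CPM in vehicle libraries. In tumor CD4 it stood at 213, 287 and 335 CPM in LCL161 libraries, against 382, 548 and 432 CPM in vehicle libraries. In both tumor populations the groups did not overlap, which with 3 libraries each is a description and not a test. The log2 fold change was -0.61 in tumor CD8 (95% interval -1.06 to -0.16, adjusted p = 0.288) and -0.71 in tumor CD4 (95% interval -1.15 to -0.26, adjusted p = 0.136), so by edgeR neither passed over all genes. In tumor CD4 it passed by DESeq2 (-0.72, adjusted p = 0.0404).

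In the spleen the groups overlapped. Spleen CD8 had 221, 291 and 291 CPM of Cxcr3 in LCL161 libraries, against 298, 288 and 299 CPM in vehicle libraries. Spleen CD4 had 381, 474 and 281 CPM in LCL161 libraries, against 589, 368 and 361 CPM in vehicle libraries. The log2 fold changes were -0.14 in spleen CD8 (95% interval -0.59 to 0.30) and -0.21 in spleen CD4 (95% interval -0.66 to 0.23). Averaged over the 4 populations Cxcr3 fell to 0.749 of its vehicle level (log2 fold change -0.42, 95% interval -0.64 to -0.19, adjusted p = 0.0113, edgeR). This call also held without each of the 24 libraries, at -0.48 to -0.36. The same average called 18.7% of all genes. In it 8 of 10 macrophage and monocyte markers and 5 of 8 conventional dendritic cell markers were called lower and 3 of 4 CD3 complex genes higher. Their part in the Cxcr3 and Cxcl10 averages was not tested.

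Cxcl9 RNA passed in none of the 4 populations. In spleen CD8, where it was highest, it stood at 34.4, 65.6 and 45.4 CPM in LCL161 libraries, against 109, 112 and 78.3 CPM in vehicle libraries. The groups did not overlap, again a description of 3 libraries each. The log2 fold change was -1.04 (95% interval -2.34 to 0.26, adjusted p = 0.309, edgeR). It passed when only these 6 libraries were fitted (-1.09, adjusted p = 0.0357). The lower dendritic cell marker sums given for this population stood beside it. Xcr1, a chemokine receptor gene of cross-presenting dendritic cells, fell by 2.28 on the log2 scale (adjusted p = 0.0213, edgeR). Wdfy4, a gene needed for cross-presentation, fell by 3.32 on the log2 scale (adjusted p = 0.00259, edgeR). Cxcl9 was 10.5 ± 0.721% of the summed dendritic cell markers in LCL161 libraries and 5.41 ± 0.97% in vehicle libraries, and 30.4 ± 11% of the summed macrophage and monocyte markers in LCL161 libraries and 48.6 ± 15.8% in vehicle libraries. Both ratios were computed after these values had been seen. The part of these cells in the Cxcl9 difference was not tested.

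In tumor CD4 Cxcl9 stood at 2.58, 4.45 and 3.35 CPM in LCL161 libraries, against 14.6, 10.9 and 4.21 CPM in vehicle libraries. Vehicle replicate 3 lay within the LCL161 range, and the log2 fold change was -1.52 (95% interval -2.90 to -0.13, adjusted p = 0.303, edgeR). The 10 macrophage and monocyte markers summed to 679 to 1350 CPM in these LCL161 libraries and 2400 to 6040 CPM in vehicle libraries. Of the 10, 1 was called lower and 0 higher, where 0.307% of all genes were called. Their part was not tested. Tumor CD8 had 16.8, 7.37 and 8.93 CPM of Cxcl9 in LCL161 libraries, against 5.67, 20.4 and 10.1 CPM in vehicle libraries. These groups overlapped widely (log2 fold change -0.13, 95% interval -1.45 to 1.19). The macrophage and monocyte sums were 608 to 925 CPM in LCL161 libraries and 1320 to 2010 CPM in vehicle libraries. Of the 10 markers 0 were called, where 0.247% of all genes were called, and their part was not tested.

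Spleen CD4 held almost no Cxcl9, at 1.69, 0 and 0.394 CPM in LCL161 libraries, against 0.777, 0.248 and 1.21 CPM in vehicle libraries. LCL161 replicate 2 had 0 counts, which allows up to 0.123 CPM at a limit of 3 counts, for counting error alone. The log2 fold change of -0.12 has a 95% interval of -1.93 to 1.68. With these low and uneven counts a change of severalfold either way is therefore not excluded. Averaged over the 4 populations the log2 fold change of Cxcl9 was -0.70 (95% interval -1.44 to 0.03, adjusted p = 0.172, edgeR). Without spleen CD4 LCL161 replicate 1 it passed (-1.16, adjusted p = 0.0284).

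**Figure D2:**
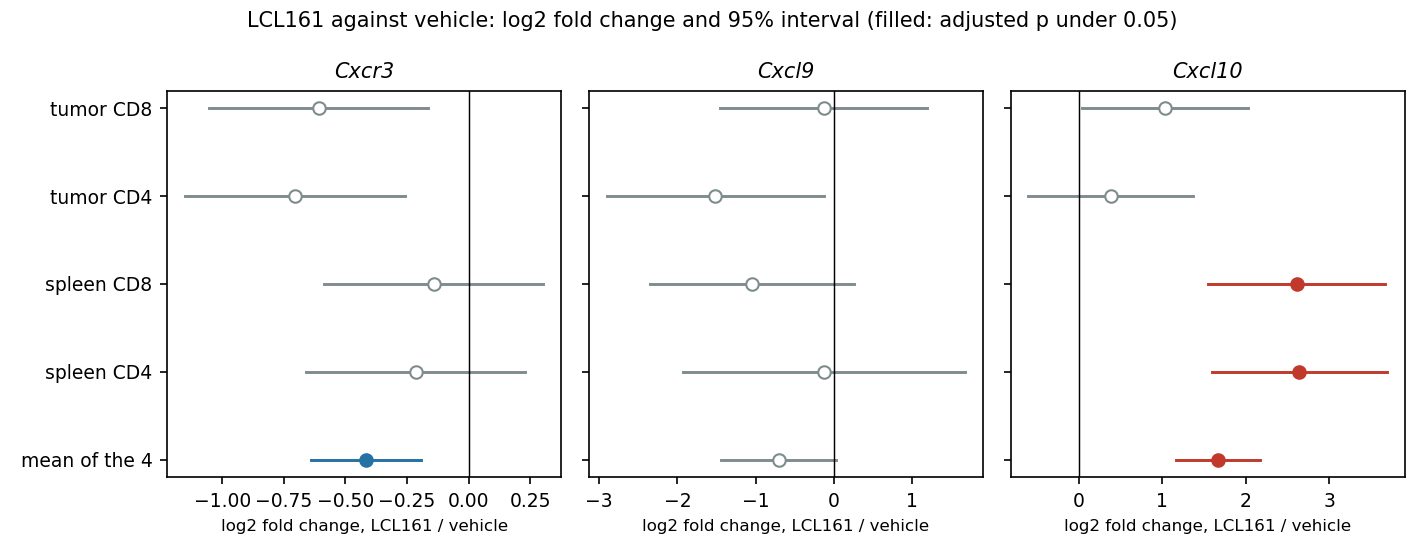
Log2 fold changes of LCL161 over vehicle for each gene, in each population and averaged over the 4, with 95% intervals on the horizontal axis. Filled points passed an adjusted p of 0.05 by edgeR, red for higher and blue for lower. Cxcl10 passed in spleen CD8, spleen CD4 and the average, Cxcr3 in the average, and Cxcl9 in none.

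Whether the LCL161 effect itself differed between tissues or populations was tested directly, and none of the 3 genes passed in any of the 4 tests. For Cxcl10 the tumor effect less the spleen effect was -1.58 on the log2 scale in CD8 (95% interval -3.00 to -0.17, adjusted p = 0.509) and -2.26 in CD4 (95% interval -3.67 to -0.85, adjusted p = 0.301), by edgeR. These comparisons called 0.0247% and 0.0099% of all genes. The CD8 effect less the CD4 effect was 0.65 in the tumor (95% interval -0.74 to 2.04) and -0.03 in the spleen (95% interval -1.47 to 1.41) for Cxcl10. They called 0% and 0.247% of all genes. For the comparison with 0 calls by edgeR, 1126 of 20203 genes had an unadjusted p under 0.05. That share is close to the 0.05 that no effect at all would give. DESeq2 called 41 genes there. For Cxcr3 the tumor effect less the spleen effect was -0.47 in CD8 (95% interval -1.10 to 0.16) and -0.49 in CD4 (95% interval -1.12 to 0.14). For Cxcl9 these differences were 0.92 in CD8 (95% interval -0.93 to 2.76) and -1.39 in CD4 (95% interval -3.67 to 0.89).

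The tumor and spleen comparisons use the same libraries again, so they are not independent of the LCL161 comparisons. In CD8-sorted cells tumor and spleen differed in opposite directions for the ligands. Cxcl10 averaged 95.8 ± 8.88 CPM in tumor CD8 vehicle and 8.75 ± 2.56 CPM in spleen CD8 vehicle (SD, n = 3 each). The tumor level was 10.9-fold higher (log2 3.45, 95% interval 2.36 to 4.55, adjusted p = 0.000263, edgeR), and this comparison called 14.9% of all genes. Cxcl9 averaged 12.1 ± 7.55 CPM in tumor CD8 vehicle and 99.8 ± 18.7 CPM in spleen CD8 vehicle. It was lower in the tumor by edgeR (log2 fold change -3.05, 95% interval -4.44 to -1.65, adjusted p = 0.0041). Both calls held without each of the 6 libraries, and without tumor CD8 vehicle replicate 2 the Cxcl9 difference was -3.67. Beside the Cxcl10 difference, 9 of 10 macrophage and monocyte markers and 10 of 12 type I interferon response genes were called higher in the tumor. Of 22 interferon gamma response genes 9 were called higher there and 3 lower. The part of these genes was not tested. The dendritic cell markers summed to 305 to 348 CPM in tumor CD8 vehicle and 1760 to 1960 CPM in spleen CD8 vehicle, with 6 of 8 called lower in the tumor, and their part in the Cxcl9 difference was not tested.

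With LCL161 the differences in CD8 had the same directions. Cxcl10 averaged 195 ± 45.6 CPM in tumor CD8 LCL161 and 53.4 ± 27 CPM in spleen CD8 LCL161 (log2 fold change 1.87, 95% interval 0.86 to 2.89, adjusted p = 0.0229, edgeR), where 8.81% of all genes were called. That call was lost without tumor CD8 LCL161 replicate 1 (2.00, adjusted p = 0.0507) or 2 (1.67, adjusted p = 0.0812), or spleen CD8 LCL161 replicate 1 (1.76, adjusted p = 0.0629) or 2 (1.61, adjusted p = 0.137). Cxcl9 averaged 11 ± 5.08 CPM in tumor CD8 LCL161 and 48.5 ± 15.8 CPM in spleen CD8 LCL161 (-2.13, 95% interval -3.49 to -0.77, adjusted p = 0.0473, edgeR). In these groups alone every same-numbered pair of libraries deviated together (correlations 0.112, 0.125 and 0.165). Over all 28 pairs of groups such correlations ran from -0.167 to 0.165, and the labels do not say that equal numbers share a mouse. With the replicate number as a block the Cxcl9 call was lost (-2.18, adjusted p = 0.0565, edgeR). It was also lost without tumor CD8 LCL161 replicate 1 (-2.57, adjusted p = 0.0764), 2 (-1.91, adjusted p = 0.166) or 3 (-1.99, adjusted p = 0.130), and without spleen CD8 LCL161 replicate 2 (-1.85, adjusted p = 0.191) or 3 (-2.17, adjusted p = 0.0900).

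Cxcr3 averaged 486 ± 33 CPM in tumor CD8 vehicle and 295 ± 5.75 CPM in spleen CD8 vehicle, with no overlap, and the tumor level was 1.65-fold higher (log2 0.72, 95% interval 0.27 to 1.17, adjusted p = 0.0275, edgeR). The 4 CD3 complex genes summed to 2590 to 2950 CPM in tumor CD8 vehicle and 1300 to 1460 CPM in spleen CD8 vehicle. Of the 4, 3 were called higher in the tumor, where 14.9% of all genes were called. Their part was not tested. The size of the Cxcr3 difference was 0.65 to 0.75 without each of the 6 libraries in turn, but the call was lost each time. Adjusted p was 0.0717, 0.0988 and 0.0552 without tumor replicates 1, 2 and 3, and 0.0856, 0.0899 and 0.0789 without spleen replicates 1, 2 and 3. With LCL161 Cxcr3 averaged 319 ± 43.2 CPM in tumor CD8 and 268 ± 40.6 CPM in spleen CD8 (log2 fold change 0.25, 95% interval -0.19 to 0.70).

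In CD4-sorted cells Cxcl9 was higher in the tumor. With vehicle it averaged 9.9 ± 5.27 CPM in tumor CD4 and 0.746 ± 0.484 CPM in spleen CD4, 13.2-fold higher in the tumor (log2 3.73, 95% interval 2.11 to 5.34, adjusted p = 0.00307, edgeR), where 16.5% of all genes were called. This call held without each of the 6 libraries. With LCL161 it averaged 3.46 ± 0.937 CPM in tumor CD4 and 0.695 ± 0.885 CPM in spleen CD4 (log2 2.33, 95% interval 0.72 to 3.94, adjusted p = 0.0369, edgeR), where 21.4% were called. Without spleen CD4 LCL161 replicate 1 it was 4.12. The call was lost without tumor CD4 LCL161 replicate 1 (2.51, adjusted p = 0.0531), 2 (2.11, adjusted p = 0.0939) or 3 (2.36, adjusted p = 0.0655), and without spleen CD4 LCL161 replicate 2 (1.73, adjusted p = 0.109) or 3 (2.06, adjusted p = 0.102). Beside it, 9 of 10 macrophage and monocyte markers were called higher in tumor CD4 than in spleen CD4 with vehicle and 8 of 10 with LCL161, and their part was not tested.

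Cxcl10 in CD4-sorted cells was higher in the tumor with vehicle, at 80 ± 52.1 CPM in tumor CD4 and 21.5 ± 8.74 CPM in spleen CD4 (log2 fold change 1.90, 95% interval 0.87 to 2.92, adjusted p = 0.0126, edgeR). The call was lost without tumor CD4 vehicle replicate 2 (1.23, adjusted p = 0.104), spleen CD4 vehicle replicate 2 (1.65, adjusted p = 0.0509) or spleen CD4 vehicle replicate 3 (1.80, adjusted p = 0.0553). The vehicle comparison called 16.5% of all genes. The 10 macrophage and monocyte markers summed to 2400 to 6040 CPM in tumor CD4 vehicle and 87.5 to 294 CPM in spleen CD4 vehicle. Of the 10, 9 were called higher in the tumor and 0 lower, and their part was not tested. With LCL161 Cxcl10 averaged 104 ± 48.6 CPM in tumor CD4 and 134 ± 52.1 CPM in spleen CD4. These groups overlapped (-0.36, 95% interval -1.35 to 0.62). Cxcr3 did not pass between tumor CD4 and spleen CD4. Its log2 fold change was -0.44 with LCL161 (95% interval -0.89 to 0.00, adjusted p = 0.146) and 0.05 with vehicle (95% interval -0.40 to 0.49), by edgeR. Without spleen CD4 LCL161 replicate 3 the difference with LCL161 passed (-0.63, adjusted p = 0.0458).

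The tumor to spleen difference itself was compared between the populations, by tests added after values were seen. Cxcl9 passed with both treatments, where 3.31% of all genes were called with LCL161 and 3.27% with vehicle. Cxcr3 and Cxcl10 did not pass (adjusted p 0.0722 to 0.233, edgeR), and Cxcl10 with LCL161 passed without spleen CD4 LCL161 replicate 3 (2.54, adjusted p = 0.0353).

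Between the sorted populations of the spleen Cxcl9 had the largest difference of the 3 genes. Its fitted level was 70.6-fold higher in CD8 than in CD4 with LCL161 (log2 6.14, 95% interval 4.43 to 7.85, adjusted p = 6.97e-05, edgeR), where 17.4% of all genes were called. With vehicle it was 134-fold higher (log2 7.06, 95% interval 5.30 to 8.83, adjusted p = 3.61e-05, edgeR), where 11.5% were called. Both calls held without each library, but the size with LCL161 was 7.93 without spleen CD4 LCL161 replicate 1 and 5.54 without spleen CD4 LCL161 replicate 2. The dendritic cell markers were called higher in spleen CD8 than in spleen CD4 for 3 of 8 with LCL161 and 6 of 8 with vehicle, and their part was not tested.

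In the tumor Cxcl9 did not pass between the populations. It averaged 11 ± 5.08 CPM in tumor CD8 and 3.46 ± 0.937 CPM in tumor CD4 with LCL161, without overlap (log2 fold change 1.68, 95% interval 0.28 to 3.07, adjusted p = 0.198, edgeR), where 2.93% of all genes were called. With vehicle it averaged 12.1 ± 7.55 CPM in tumor CD8 and 9.9 ± 5.27 CPM in tumor CD4 (0.29, 95% interval -1.03 to 1.61), where 4.12% were called.

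Cxcl10 leaned the other way in the spleen, with log2 fold changes of CD8 over CD4 of -1.32 with LCL161 (95% interval -2.32 to -0.33, adjusted p = 0.0617) and -1.29 with vehicle (95% interval -2.33 to -0.26, adjusted p = 0.0964) by edgeR. Neither passed by edgeR, and both passed by DESeq2 (-1.34, adjusted p = 0.0227, and -1.29, adjusted p = 0.0413). With LCL161 it also passed by edgeR without spleen CD8 LCL161 replicate 3 (-1.81, adjusted p = 0.0405) or spleen CD4 LCL161 replicate 3 (-1.62, adjusted p = 0.0328). In the tumor its log2 fold changes were 0.91 with LCL161 (95% interval -0.08 to 1.90) and 0.26 with vehicle (95% interval -0.72 to 1.24). Cxcr3 had log2 fold changes of CD8 over CD4 of 0.19 and -0.50 in tumor and spleen with LCL161, and of 0.10 and -0.57 in tumor and spleen with vehicle. None of these passed (adjusted p 0.0874 to 0.840, edgeR), and the spleen difference with LCL161 passed without spleen CD4 LCL161 replicate 3 (-0.69, adjusted p = 0.0370). In spleen CD8 with vehicle, 3 of 4 CD3 complex genes and 3 of 5 plasmacytoid dendritic cell markers were called lower than in spleen CD4. With LCL161 these counts were 2 of 4 and 1 of 5, and 4 of 4 gamma delta T cell genes were called higher. Over all genes 11.5% were called with vehicle and 17.4% with LCL161. The part of these cells was not tested.

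**Figure D3:**
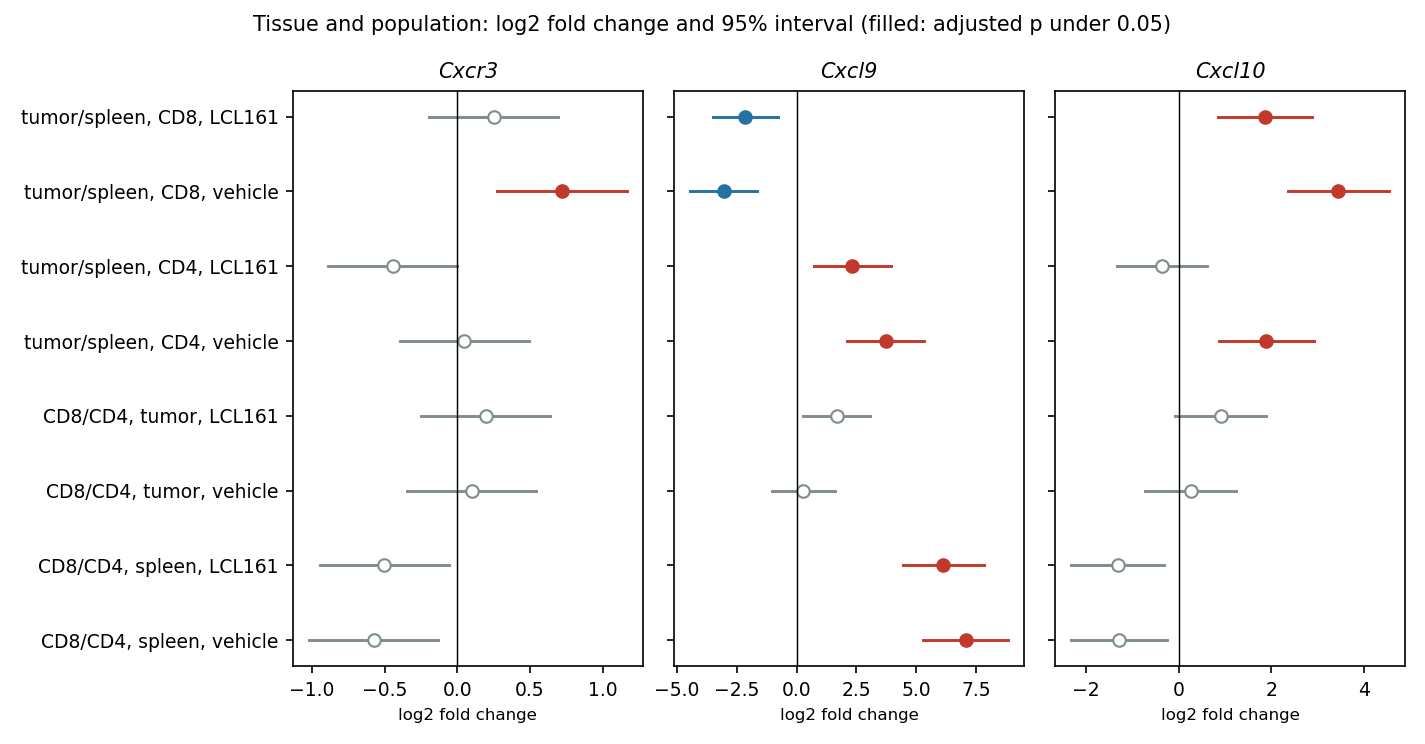
Log2 fold changes of tumor over spleen and of CD8 over CD4 for each gene, with 95% intervals on the horizontal axes, which differ between the panels. Filled points passed an adjusted p of 0.05 by edgeR, red for higher and blue for lower. Cxcl9 was lower in the tumor in CD8-sorted cells and higher in the tumor in CD4-sorted cells, with each treatment.

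Over the 8 groups the order of the levels differed from gene to gene. For Cxcr3 the groups by falling mean were tumor CD8 vehicle, tumor CD4 vehicle, spleen CD4 vehicle, spleen CD4 LCL161, tumor CD8 LCL161, spleen CD8 vehicle, tumor CD4 LCL161 and spleen CD8 LCL161. Each of these groups overlapped with the next, and the highest mean was 1.82 times the lowest. For Cxcl10 the order was tumor CD8 LCL161, spleen CD4 LCL161, tumor CD4 LCL161, tumor CD8 vehicle, tumor CD4 vehicle, spleen CD8 LCL161, spleen CD4 vehicle and spleen CD8 vehicle. Among neighbors in that order the last 3 groups did not overlap, and the highest mean was 22.3 times the lowest. For Cxcl9 the order was spleen CD8 vehicle, spleen CD8 LCL161, tumor CD8 vehicle, tumor CD8 LCL161, tumor CD4 vehicle, tumor CD4 LCL161, spleen CD4 vehicle and spleen CD4 LCL161. Both spleen CD8 groups stood apart from the rest and from each other, both spleen CD4 groups stood below all others, and the highest mean was 144 times the lowest. By group medians the order changed only among overlapping groups of Cxcr3 and of Cxcl9.

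Per kilobase of exon, the receptor was more abundant than either ligand in all 8 groups. In tumor CD8 LCL161 the levels were 184 ± 24.9 CPM per kb for Cxcr3, 86.9 ± 20.1 CPM per kb for Cxcl10 and 3.66 ± 1.68 CPM per kb for Cxcl9. In spleen CD8 vehicle they were 170 ± 3.51 CPM per kb for Cxcr3, 3.88 ± 1.13 CPM per kb for Cxcl10 and 33.1 ± 6.18 CPM per kb for Cxcl9. Spleen CD8 vehicle was the group in which Cxcl9 exceeded Cxcl10 by this measure, while in spleen CD8 LCL161 Cxcl10 stood at 23.7 ± 12 and Cxcl9 at 16.1 ± 5.25 CPM per kb. The Cxcl10 values depend on the length taken: over its longest coding transcript tumor CD8 LCL161 had 145 CPM per kb.

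The list of other genes of the CXCR3 axis held Cxcl11, the third ligand, Dpp4, a protease that trims CXCL10, and Ackr3, a scavenging receptor for CXCL11. With LCL161, 0 of 3 passed in each population by edgeR, where 0.247 to 8.33% of all genes were called, so a count over 3 genes says little. Cxcl11 is annotated as a polymorphic pseudogene in this mouse reference and had 0 to 51 counts a library. Its level was 0.672 ± 0.624 CPM in tumor CD8 LCL161 and 0.11 ± 0.153 CPM in tumor CD8 vehicle, and 1.41 ± 1.02 CPM in spleen CD4 LCL161 and 0.312 ± 0.245 CPM in spleen CD4 vehicle. Dpp4 averaged 249 ± 49.8 CPM in spleen CD8 LCL161 and 338 ± 6.57 CPM in spleen CD8 vehicle (log2 fold change -0.44, adjusted p = 0.466, edgeR).

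NF-kB genes moved with LCL161 in all 4 populations, including the tumor populations, where Cxcl10 did not pass. Of 14 listed genes 8 were called higher in tumor CD8, 6 in tumor CD4, 8 in spleen CD8 and 7 in spleen CD4, and 2 were called lower, both in spleen CD8. Over all genes the shares called were 0.247%, 0.307%, 8.33% and 0.436% in that order of populations. The median log2 fold change of the list was 1.05, 0.87, 0.71 and 0.83 in the same order, against medians over all genes of 0.00, -0.01, 0.07 and 0.02. Nfkbia, which encodes the inhibitor IκBα, rose by 1.79, 1.35, 1.76 and 1.42 on the log2 scale in the same order, and Bcl3, an IκB family member, by 1.22, 1.00, 1.32 and 1.21. Relb, a subunit of the alternative pathway, rose by 1.25 in tumor CD8, 1.12 in tumor CD4, 0.64 in spleen CD8 and 1.09 in spleen CD4. Nfkb1 and Map3k14 were the genes called lower in spleen CD8, by -0.65 and -1.26.

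**Figure D4:**
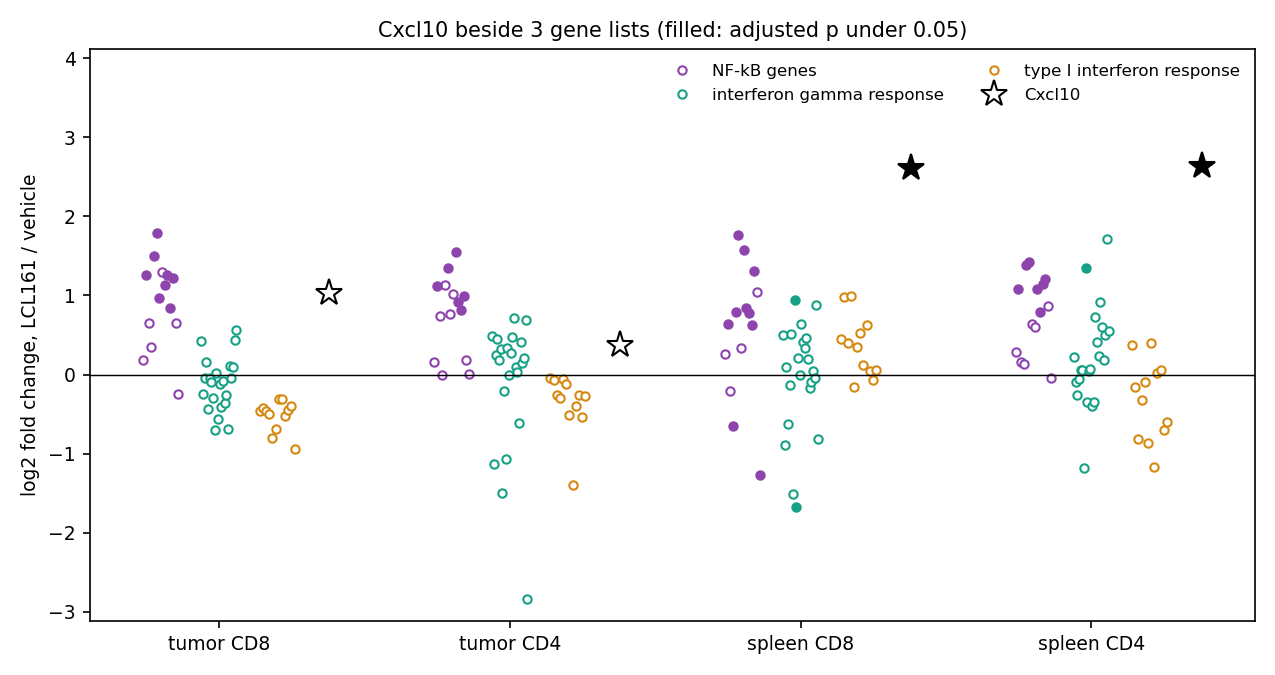
Log2 fold changes of LCL161 over vehicle for Cxcl10 (stars) beside the genes of the NF-kB, interferon gamma response and type I interferon response lists in each population (circles). Filled symbols passed an adjusted p of 0.05 by edgeR. In both spleen populations Cxcl10 lies above every gene of the 3 lists, and the genes called are mostly those of the NF-kB list.

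Interferon genes were counted against the shares of all genes called, 0.247% in tumor CD8, 0.307% in tumor CD4, 8.33% in spleen CD8 and 0.436% in spleen CD4. Of 22 interferon gamma response genes, 0 were called in tumor CD8 and tumor CD4, 1 higher and 1 lower in spleen CD8 and 1 higher in spleen CD4. The gene called higher was Socs1, a feedback inhibitor of interferon signalling, which rose by 0.94 in spleen CD8 (adjusted p = 0.00954) and by 1.35 in spleen CD4 (adjusted p = 0.0105), by edgeR. Ciita, the activator of MHC class II genes, fell by 1.67 in spleen CD8 (adjusted p = 0.0189, edgeR). Of 12 type I interferon response genes 0 were called in any population, with list medians of -0.46 in tumor CD8, -0.26 in tumor CD4, 0.37 in spleen CD8 and -0.24 in spleen CD4. Between tissues, 10 of these 12 were called higher in tumor CD8 than in spleen CD8 with vehicle and 5 with LCL161. In CD4-sorted cells 7 were called higher in the tumor with vehicle and 6 with LCL161. In each of these comparisons 0 were called lower. Over all genes 14.9%, 8.81%, 16.5% and 21.4% were called in that order. The part of these genes in the Cxcl10 differences was not tested. Among 9 inducers of interferon gamma and of the Th1 program, 2 were called higher with LCL161 than with vehicle in spleen CD8 and 0 in the other populations. Ifng, the gene of interferon gamma, averaged 63.8 ± 34.2 CPM in spleen CD8 LCL161 and 10.3 ± 4.05 CPM in spleen CD8 vehicle (log2 fold change 2.63, adjusted p = 0.0231, edgeR). Il12rb2, an interleukin 12 receptor chain, rose by 1.28 there (adjusted p = 0.0297, edgeR). Tbx21, the gene of the Th1 regulator T-bet, averaged 210 ± 16.6 CPM in tumor CD8 LCL161 and 343 ± 71.8 CPM in tumor CD8 vehicle (-0.71, adjusted p = 0.200, edgeR), and 198 ± 43.2 CPM in tumor CD4 LCL161 and 199 ± 40.2 CPM in tumor CD4 vehicle. Over the 24 libraries Pearson's r of Cxcr3 and Tbx21 was -0.0463 (-0.250 within groups).

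Of 15 other chemokine receptor genes 1 was called higher in spleen CD4 and 1 lower in spleen CD8 with LCL161, and 0 in the tumor populations, where 0.436% of all genes were called in spleen CD4 and 8.33% in spleen CD8. Cxcr4, the receptor for CXCL12, rose by 1.24 on the log2 scale in spleen CD4 (adjusted p = 0.0281, edgeR), and Xcr1 is the gene that fell in spleen CD8. Of 21 other chemokine genes that passed the filter, of 24 listed, 3 were called higher in spleen CD8 and 0 elsewhere. They were Cxcl2, Ccl2 and Ccl12, which attract neutrophils or monocytes, all at low levels. Cxcl2 averaged 2.1 ± 2.16 CPM in spleen CD8 LCL161 and 0.0906 ± 0.118 CPM in spleen CD8 vehicle. Between tissues, 8 of these 21 genes were called higher and 0 lower in tumor CD8 than in spleen CD8 with LCL161. That comparison called 8.81% of all genes. With vehicle 10 of the 21 were called higher and 0 lower, where 14.9% of all genes were called. Cxcl9 was called lower with both treatments. The difference of Cxcl9 from the 21 genes was not tested. Cxcr6, the receptor for CXCL16, averaged 985 ± 108 CPM in tumor CD8 vehicle and 196 ± 30.5 CPM in spleen CD8 vehicle (log2 fold change 2.33, adjusted p = 0.00242, edgeR).

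Likeness of pattern was measured as Pearson's r of log2 CPM over the 24 libraries, which share the 8 groups, among 11805 genes with a mean of at least 1 CPM. It is a description over libraries that share groups and depth. The gene most like Cxcl10 was Art3 (r = 0.956), whose exons overlap it, followed by H2-T22 (0.923), Lpxn (0.901), Socs1 (0.878) and H2-T10 (0.875). Within groups, after group means were taken off, r was 0.740 for Art3 and 0.776 for H2-T22. The genes most like Cxcl9 were Rab7b (0.939), Gpr141b (0.933), Ocstamp (0.927), Tlr11 (0.925) and Ffar4 (0.923), and within groups r was 0.117 to 0.636. The genes most like Cxcr3 were Tmem63a (0.869), Pla2g15 (0.784), Tmem140 (0.751), Map1lc3b (0.746) and Aacs (0.745). Tmem63a encodes an osmotically sensitive ion channel, and its r within groups was 0.778. Among themselves the 3 genes were less alike. Pearson's r was -0.298 between Cxcl9 and Cxcl10 (0.200 within groups), -0.330 between Cxcr3 and Cxcl9 (-0.0512 within groups) and 0.217 between Cxcr3 and Cxcl10 (0.698 within groups).

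**Figure D5:**
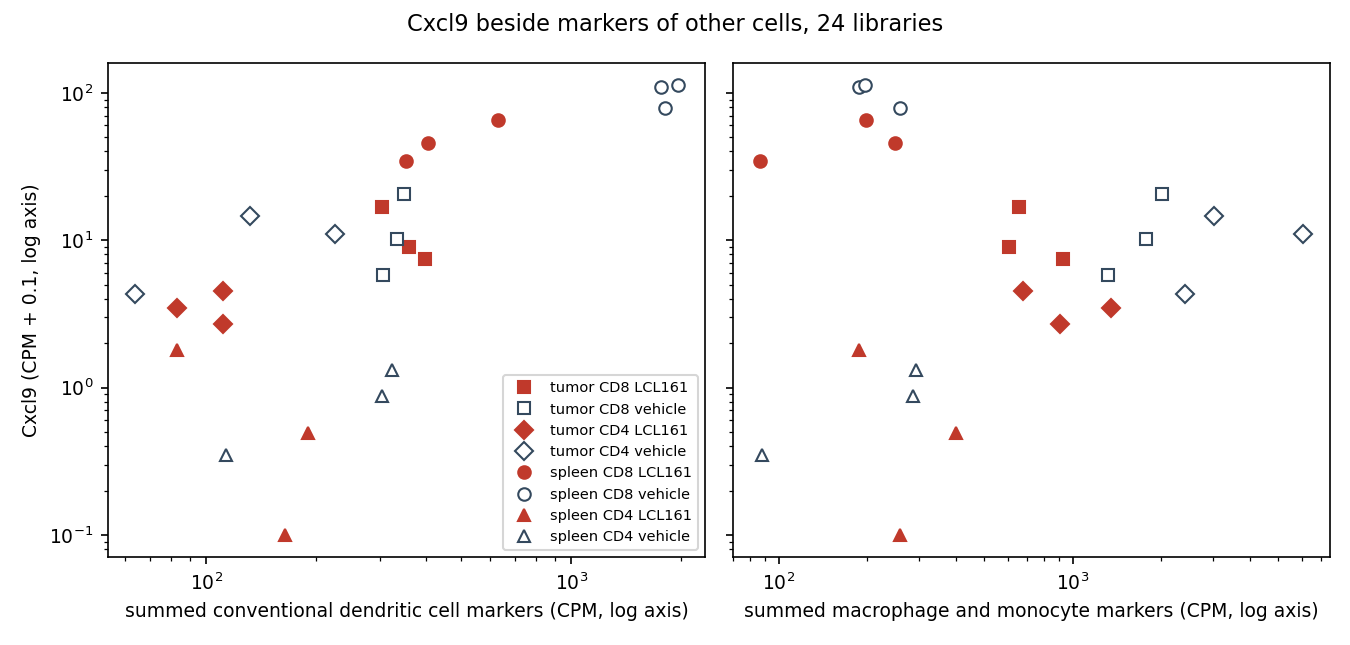
Cxcl9 in CPM plus 0.1 on a log axis against the summed conventional dendritic cell markers (left) and macrophage and monocyte markers (right) in CPM on log axes, for the 24 libraries. Filled red symbols are LCL161 and open dark blue symbols vehicle, and shape gives the population. Spleen CD8 libraries have the highest Cxcl9 and dendritic cell sums of 352 to 1960 CPM, while tumor CD8 libraries reach up to 398 CPM of these markers with less Cxcl9.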

How the data were processed

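RNA was sequenced from 24 libraries in 8 groups of 3. Per the submitters' processing notes, the tools used included cutadapt and STAR 2.7.3a, and the genome was GRCm38. The values are estimated counts per gene, made by the authors before they were deposited and not scaled. No source used here gives the counting tool, annotation or strand setting. All values were rounded to whole numbers for the tests, since 52.7% of those above 0 held a fraction. Library totals were 15455728 to 25145426, and the limit given at 0 counts covers counting error only.

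Genes were kept by filterByExpr (minimum count 10), libraries scaled by TMM (factors 0.939 to 1.05), and all 8 groups fitted together by the robust quasi-likelihood method of edgeR 4.0.16 (R 4.3.3), with 16 residual degrees of freedom. All tests are two-sided, with Benjamini-Hochberg adjustment over the 20203 genes in each of 17 contrasts, a threshold of 0.05 and 95% intervals from the fitted standard errors. Another 2 contrasts were added after values were seen. Levels are CPM on TMM-scaled sizes, and a prior count of 2 went into log CPM. Overlap of groups describes 3 libraries against 3 and is not a test. The results were recomputed with RLE or unscaled libraries, without the filter, with DESeq2 1.42.0, on the compared libraries alone, with a replicate block and with each library left out. The test was checked on simulated data. Positions come from GENCODE M21 and promoters from RefSeq. Tables and figures used Python 3.11.15 and matplotlib 3.10.9.

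The members and lists were chosen with earlier results of these data known. The genes named are the 3 members, up to 4 genes per list past the threshold with the smallest adjusted p, the 5 genes most like each member with a mean of at least 1 CPM (leaving out predicted genes, pseudogenes and receptor segments), and defining markers. Dpp4, Cxcl11, Tbx21, Nfkb1 and Map3k14 were also named, some after their values were seen.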

Additional observations from a re-analysis of the deposited data

Results flagged for a closer look

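The difference in Cxcl9 between tumor and spleen had opposite directions in the sorted populations with either treatment: lower in the tumor in CD8-sorted cells and higher in the tumor in CD4-sorted cells. The tumor-minus-spleen difference in CD8 less that in CD4 was -4.47 on the log2 scale in LCL161 libraries (95% interval -6.57 to -2.36, adjusted p = 0.0219, edgeR) and -6.77 in vehicle libraries (95% interval -8.90 to -4.64, adjusted p = 0.00126, edgeR). Both tests were chosen after the values were seen. They called 3.31% and 3.27% of all genes in LCL161 and vehicle libraries. The vehicle call held without each of the 12 libraries (-7.37 without tumor CD8 vehicle replicate 2, and up to -6.34). The LCL161 difference was -6.24 without spleen CD4 LCL161 replicate 1 and -3.85 without spleen CD4 LCL161 replicate 2. Its call was lost without spleen CD8 LCL161 replicate 2 (-4.18, adjusted p = 0.0620), spleen CD8 LCL161 replicate 3 (-4.50, adjusted p = 0.0505) or tumor CD8 LCL161 replicate 2 (-4.24, adjusted p = 0.0611).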

How the results depend on the processing

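Values here are log2 differences. Of the recomputed values other than those leaving out a library, 324 of 339 kept their direction and side of the threshold. Without scaling, the difference in the Cxcl10 effect of LCL161 between CD8 and CD4 of the spleen was 0.0063. Without the filter, the tumor to spleen differences with LCL161 of Cxcl9, -2.15 in CD8 and 2.32 in CD4, and that of Cxcr3 in CD8 with vehicle (0.68) lost their calls. With only the compared libraries, calls were lost for Cxcl10 in spleen CD4 with LCL161 (2.63), Cxcl9 in tumor CD4 against spleen CD4 with LCL161 (2.31), Cxcl10 in tumor CD4 against spleen CD4 with vehicle (1.92) and the Cxcl9 difference of tissue differences with LCL161 (-4.47). Calls were gained for the LCL161 effects on Cxcl10 in tumor CD8 (1.04) and Cxcl9 in spleen CD8 (-1.09). DESeq2 added Cxcr3 in tumor CD4 with LCL161 (-0.72), Cxcl10 between CD8 and CD4 of the spleen (-1.34 with LCL161, -1.29 with vehicle) and the Cxcl10 difference of tissue differences with LCL161 (2.26). The cause of these changes was not tested. Low and uneven counts limit Cxcl9 in spleen CD4, at 0 to 37 counts a library.

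Same-numbered libraries deviated together, with each correlation over 0.1, in 1 of 28 pairs of groups, tumor CD8 LCL161 and spleen CD8 LCL161, and the numbers were not taken as pairs elsewhere. Over the 28 pairs these correlations ran from -0.167 to 0.165. With the replicate block, Cxcl9 in tumor CD8 against spleen CD8 with LCL161 was -2.18 (adjusted p = 0.0565, edgeR) and lost its call, and no other call on the 3 genes changed.

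Leaving out 1 library at a time kept direction and side of the threshold in 435 of 504 values. The lowest and highest values of results with an exception follow. For the LCL161 effect they were Cxcr3 in spleen CD4 -0.42 to 0.044, Cxcl9 in spleen CD4 -1.92 to 0.47, Cxcl10 in spleen CD4 2.41 to 3.00, Cxcl10 in spleen CD8 2.11 to 2.85. Also for the LCL161 effect they were Cxcl9 in tumor CD8 -0.58 to 0.48, Cxcl9 in mean of 4 populations -1.16 to -0.56. For the difference of LCL161 effects they were Cxcl9 in tumor minus spleen CD4 -1.97 to 0.42, Cxcr3 in CD8 minus CD4 spleen -0.21 to 0.25, Cxcl9 in CD8 minus CD4 spleen -1.54 to 0.85, Cxcl10 in CD8 minus CD4 spleen -0.52 to 0.21. Also for the difference of LCL161 effects they were Cxcr3 in CD8 minus CD4 tumor -0.088 to 0.23, Cxcl10 in CD8 minus CD4 tumor -0.015 to 1.01. For tumor against spleen they were Cxcr3 in CD4 LCL161 -0.63 to -0.25, Cxcl9 in CD4 LCL161 1.73 to 4.12, Cxcl9 in CD8 LCL161 -2.57 to -1.85, Cxcl10 in CD8 LCL161 1.61 to 2.35. Also for tumor against spleen they were Cxcr3 in CD4 vehicle -0.14 to 0.28, Cxcl10 in CD4 vehicle 1.23 to 2.25, Cxcr3 in CD8 vehicle 0.65 to 0.75. For CD8 against CD4 they were Cxcr3 in spleen LCL161 -0.69 to -0.31, Cxcl10 in spleen LCL161 -1.81 to -1.07, Cxcl9 in tumor vehicle -0.30 to 0.70, Cxcl10 in tumor vehicle -0.093 to 0.93. For the difference of tissue differences, CD8 minus CD4, they were Cxcl9 in LCL161 -6.24 to -3.85, Cxcl10 in LCL161 1.92 to 2.72.

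Counts of genes called by edgeR moved by over 1.5 times under some settings. For LCL161 against vehicle spleen CD4, 88 became 49 unfiltered, 0 on compared libraries, 595 by DESeq2, 0 to 226 without 1 library. For LCL161 against vehicle spleen CD8, 1682 became 961 unfiltered, 244 to 1706 without 1 library. For LCL161 against vehicle tumor CD4, 62 became 24 unfiltered, 0 on compared libraries, 677 by DESeq2, 0 to 370 without 1 library. For LCL161 against vehicle tumor CD8, 50 became 240 on compared libraries, 257 by DESeq2, 4 to 42 without 1 library. For LCL161 effects tumor minus spleen CD4, 2 became 0 on compared libraries, 136 by DESeq2, 0 with the replicate block, 0 to 21 without 1 library. For LCL161 effects tumor minus spleen CD8, 5 became 112 on compared libraries, 159 by DESeq2, 2 without scaling, 0 to 102 without 1 library. For LCL161 effects CD8 minus CD4 spleen, 50 became 4 on compared libraries, 486 by DESeq2, 0 to 313 without 1 library. For LCL161 effects CD8 minus CD4 tumor, 0 became 41 by DESeq2, 0 to 1 without 1 library. For tumor against spleen CD4 LCL161, 4317 became 1659 on compared libraries. For tumor against spleen CD8 LCL161, 1780 became 1169 unfiltered, 316 to 1839 without 1 library. For tumor against spleen CD4 vehicle, 3338 became 899 on compared libraries, 1899 to 3326 without 1 library. For tumor against spleen CD8 vehicle, 3008 became 5790 on compared libraries, 1906 to 2184 without 1 library. For CD8 against CD4 spleen LCL161, 3522 became 1392 on compared libraries, 1970 to 3532 without 1 library. For CD8 against CD4 tumor LCL161, 592 became 1212 by DESeq2, 211 to 472 without 1 library. For CD8 against CD4 spleen vehicle, 2322 became 1310 to 1873 without 1 library. For CD8 against CD4 tumor vehicle, 832 became 167 on compared libraries, 1574 by DESeq2, 237 to 969 without 1 library. For tissue differences CD8 minus CD4 LCL161, 668 became 380 unfiltered, 252 on compared libraries, 1507 by DESeq2, 214 to 1088 without 1 library. For tissue differences CD8 minus CD4 vehicle, 660 became 1356 by DESeq2, 265 to 857 without 1 library.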
